A study of Arabidopsis thaliana with 48 samples.

Results

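Transcript levels were compared between the hsfa2 hsfa3 double mutant and the wild type Col, both harvested 52 h after a two-step heat stress (HS). The comparison uses 6 of the 48 RNA-seq libraries of the series, 3 of the double mutant (genotype hsfa2 hsfa3, treatment ACC+52h) and 3 of Col at the same time, chosen by genotype and treatment alone. Whole Arabidopsis thaliana seedlings of the Col-0 accession were grown with 16 h of light and 8 h of dark. At an age of 4 d they received the acclimation treatment (ACC), which is 1 h at 37 °C, a pause of 90 min at 23 °C and 45 min at 44 °C. They were then frozen 52 h later. The remaining libraries, used here for the fit and for a few comparisons, come from both single mutants and from other times, namely seedlings that had no HS (NTC, whose age the labels do not give) and seedlings after 4 h or 28 h of recovery. The hsfa3-1 allele is an insertion from the Salk collection, and hsfa2 is a mutant described before. Each gene is represented by 1 allele, and both mutations were present from germination on, so the double mutant also went through the HS and its early recovery with them. Since whole seedlings were sampled in bulk, fewer cells that express a gene and less RNA per cell cannot be told apart.

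Heat shock factors (HSFs) are transcription factors that bind heat shock elements, short arrays of inverted GAA units in promoters, and activate genes for heat shock proteins (HSPs), chaperones that keep damaged proteins from aggregating or refold them. Most of these transcripts rise within minutes to hours of heat and then decline. A subset stays raised for days after a mild HS, together with an increased tolerance of a second one, and this is called HS memory. HSFA2 is itself strongly induced by heat, and HSFA2 and HSFA3 have been studied as activators of this sustained phase in Arabidopsis.

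The 6 libraries held between 32961567 and 33679916 read pairs on protein-coding genes, so that 3 counts, taken as the floor of detection, correspond to levels of 0.0848 to 0.0901 CPM. CPM is a gene's count scaled by the normalized size of its library. Between 1.41% and 1.67% of pairs lay on no gene and 2.01% to 2.28% on more than 1 gene. Log-scale levels correlated between 0.984 and 0.992 across genes among the Col libraries, 0.980 to 0.990 among those of the double mutant and 0.979 to 0.990 between the groups, with genes not being independent replicates. No pair of libraries within a group was alike within sampling noise. The median log2 difference over all 21107 genes tested was 0.00, which the scaling of the libraries sets near 0, so a shift common to all genes could not have been seen.

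At 52 h, 112 genes were lower in the double mutant than in Col and 17 were higher, by edgeR's quasi-likelihood test at a Benjamini-Hochberg adjusted p below 0.05. These are 0.531% and 0.0805% of the 21107 genes tested. At an unadjusted p below 0.05 the counts were 627 and 415. Of the 112 lower genes, 31 fell by more than 2 on the log2 scale, 33 by 1 to 2 and 48 by less than 1, and 10 of the higher genes rose by more than 1 (20 with the replicate block, and 5 without Col replicate 3 or double mutant replicate 1, 6 without double mutant replicate 3 and 17 without double mutant replicate 2). For each of the 112 genes the 3 double mutant libraries all lay below the 3 Col libraries, which was also so for 1217 of all tested genes. With the replicate number of the labels as a block, 161 genes were lower and 46 higher. Leaving out 1 library gave 72 to 107 lower genes and 7 to 22 higher ones. The fewest lower genes were found without double mutant replicate 3. The count of higher genes fell to 9 without Col replicate 3, 7 without double mutant replicate 1 and 8 without double mutant replicate 3. A fit on the 6 libraries alone called 49 lower and 8 higher.

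**Figure D1:**
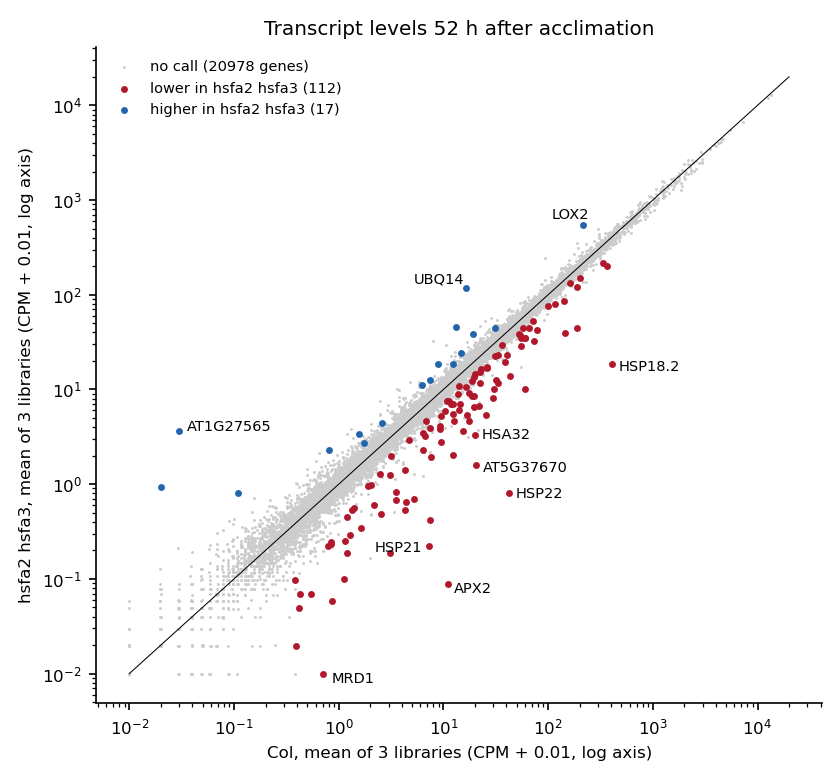
Mean level of each tested gene in Col (x axis) and in hsfa2 hsfa3 (y axis) at 52 h, each the mean of 3 libraries as CPM with 0.01 added, on log axes. Red points are the 112 genes called lower in the double mutant, blue points the 17 called higher and grey points the genes without a call. The line marks equal levels, and APX2, HSP22 and HSP18.2 lie far below it.

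The mutated genes were examined first. HSFA2 (AT2G26150, chromosome 2) stood at 6.49, 1.67 and 1.07 CPM in Col and at 0.238, 0.204 and 0.0865 CPM in the double mutant. All double mutant values were below all Col values, but Col replicate 1 was well above the other two. The log2 difference was -4.10 ± 0.89 (SE, n = 3 per group, edgeR adjusted p = 0.0116). This call was lost without Col replicate 1 and without any 1 of the double mutant libraries, with an adjusted p of up to 0.393 when libraries were left out. At 4 h, where HSFA2 is high, its mean was 1389 CPM in Col and 62.2 CPM in the double mutant. HSFA3 (AT5G03720, chromosome 5) stood at 10.6, 7.14 and 9.89 CPM in Col and at 3.45, 3.35 and 4.76 CPM in the double mutant, a log2 difference of -1.25 ± 0.20 (edgeR adjusted p = 0.000117). Reads of HSFA3 remained in the double mutant, and the gene was also lower there without HS (log2 difference -1.13). The counts do not show which side of the insertion they come from, and HSFA3 overlaps another annotated gene.

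Of the 21 annotated HSF genes, 19 were tested, and HSFA2 and HSFA3 were the members called (10.5%, against 0.531% of all genes). Both are the mutated genes themselves, so this share does not describe the rest of the family, in which no member was called. The median log2 difference of the list was -0.07. HSFA1E gave -0.30 (edgeR adjusted p = 0.738), and its 3 double mutant values lay below those of Col. The study names it a memory gene for its stronger re-induction by a second HS, which these libraries do not measure. HSFA1A, HSFA1B, HSFA1D, HSFA7A and HSFB2A gave log2 differences between -0.31 and 0.11, with overlapping groups.

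Small HSPs, chaperones that hold unfolding proteins, were examined in 2 lists. In the organelle list 4 of 6 members were lower (66.7%, against 0.531% of all genes), with a median log2 difference of -3.25. HSP22 (AT4G10250, chromosome 4), which resides in the endoplasmic reticulum (ER), stood at 51.1, 34.7 and 41.2 CPM in Col and at 0.921, 0.728 and 0.721 CPM in the double mutant, a log2 difference of -5.74 ± 0.63 (edgeR adjusted p = 1.59e-07). The 2 groups were far apart. HSP21 (AT4G27670, chromosome 4), the chloroplast small HSP, stood at 13.2, 4.3 and 4.38 CPM in Col and at 0.238, 0.321 and 0.0865 CPM in the double mutant, a log2 difference of -5.06 ± 0.65 (edgeR adjusted p = 2.9e-06). Col replicate 1 was well above the other Col libraries for HSP21, yet the groups did not overlap.

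The HSP20-like chaperone AT5G37670 (chromosome 5) had 17.9, 24.6 and 19.1 CPM in Col and 1.4, 1.52 and 1.79 CPM in the double mutant. Its log2 difference was -3.71 ± 0.30 (edgeR adjusted p = 7.94e-11), and the groups did not overlap. AT1G52560 had 6.67, 3.63 and 2.91 CPM in Col and 0.743, 0.787 and 0.375 CPM in the double mutant, with a log2 difference of -2.79 ± 0.52 (edgeR adjusted p = 0.00158), and this call was lost without replicate 2 or replicate 3 of all groups (adjusted p up to 0.211). The mitochondrial HSP23.6 was not called, at 7.18, 1.9 and 1.13 CPM against 1.69, 0.699 and 0.951 CPM.

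In the cytosolic and nuclear list, 2 of 12 members were lower (16.7%, against 0.531% of all genes), while 11 of 12 differences were below 0 (48.5% of all genes had one) and the median was -1.76. HSP18.2 (AT5G59720, chromosome 5) had 548, 273 and 404 CPM, against 17.3, 23.9 and 14.6 CPM in the double mutant. The groups were separated by a wide gap, and the log2 difference was -4.46 ± 0.44 (edgeR adjusted p = 1.2e-08). AT2G29500, an HSP20-like chaperone on chromosome 2, had 42.9, 23.2 and 23.4 CPM in Col and 9.24, 7.72 and 7.35 CPM in the double mutant (-1.88 ± 0.31, edgeR adjusted p = 0.000282, and up to 0.0744 without replicate 3 of all groups). The members that did not pass had large differences with large errors. HSP17.6A gave -2.52 ± 0.68 (edgeR adjusted p = 0.0887) and HSP17.4 gave -2.45 ± 0.71 (edgeR adjusted p = 0.163). Col replicate 1 was the highest Col library for 10 of these 12 genes, and replicate 1 was the highest in both groups for 7 of them (58.3%, against 18.8% of all genes tested). The part of this in the results was not tested. Small HSPs are a family of similar genes, and reads that fit several members equally were not counted for any.

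HSA32 (AT4G21320, chromosome 4) encodes a heat stress associated protein needed for long retention of acquired thermotolerance. Its level was 23.3, 19.9 and 16.6 CPM in Col and 3.71, 3.03 and 3.23 CPM in the double mutant. The groups did not overlap, and the log2 difference was -2.58 ± 0.22 (edgeR adjusted p = 2.71e-10). HSA32 overlaps the annotated subtilase gene AT4G21323, which also fell (-2.38 ± 0.30), and without the strand of the reads the pair cannot be fully separated. HSP101 (AT1G74310, chromosome 1), the cytosolic disaggregase that works with HSA32, had 23, 22.2 and 19.3 CPM in Col and 14.5, 10.5 and 10.2 CPM in the double mutant. These groups did not overlap either, but the log2 difference of -0.88 ± 0.39 did not pass the test (edgeR adjusted p = 0.904). It passed once replicate 1 of all groups was left out (edgeR adjusted p = 0.000249).

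Among 14 members of the HSP70 list, the ATP-driven folding chaperones, 2 were lower (14.3%, against 0.531% of all genes). HSP70 (AT3G12580, the cytosolic HSP70-4, chromosome 3) had 150, 148 and 137 CPM in Col and 59.6, 26.3 and 31.3 CPM in the double mutant, with a log2 difference of -1.89 ± 0.41 (edgeR adjusted p = 0.0116). The call was lost without double mutant replicate 2 or replicate 3 (adjusted p up to 0.628 when libraries were left out). HSP70T-2 (AT2G32120) had 26.2, 28.5 and 22.2 CPM against 6.48, 4.52 and 4.99 CPM, a log2 difference of -2.27 ± 0.26 (edgeR adjusted p = 5.37e-07). The constitutive HSP70-14 and HSP70-15 gave log2 differences of 0.01 and 0.02. Differences in the HSP70 list ranged from -4.43, in a member that was not called, to 0.63, with a median of -0.05. In the HSP90 list no member of 7 was called and in the ER chaperone list no member of 9. HSP90.1 (AT5G52640), the heat-inducible cytosolic HSP90, had 74.4, 45.9 and 43.9 CPM in Col and 29.1, 10.14 and 12 CPM in the double mutant (-1.68 ± 0.52, edgeR adjusted p = 0.253). It passed with the replicate block (edgeR adjusted p = 0.000491). BIP3, an ER HSP70, had 0.15, 0.0878 and 0.0283 CPM in Col and 0.565, 0.408 and 0.288 CPM in the double mutant, with a log2 difference of 2.21 ± 0.57 (edgeR adjusted p = 0.0609 and 0.0463 with the block). Of its Col libraries, replicate 2 lay at the floor of detection and replicate 3 below it. ERDJ3A, an ER J-domain co-chaperone, gave -0.70 ± 0.25 (edgeR adjusted p = 0.459 and 0.0412 with the block).

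Of 14 co-chaperones and regulators, 3 were lower (21.4%, against 0.531% of all genes). MBF1C (AT3G24500), a transcriptional coactivator of the heat response, had 32, 30.2 and 28.4 CPM in Col and 12.3, 8.86 and 9.34 CPM in the double mutant, a log2 difference of -1.57 ± 0.25 (edgeR adjusted p = 0.000181). ROF2 (AT5G48570), an HSP90-binding immunophilin, gave -1.51 ± 0.33 (edgeR adjusted p = 0.0118), and BAG6 (AT2G46240), a co-chaperone of HSP70, gave -1.34 ± 0.27 (edgeR adjusted p = 0.00562). All 3 had separated groups. ROF2 was no longer called without Col replicate 1, and neither ROF2 nor BAG6 was called without double mutant replicate 2 or replicate 3, with adjusted p up to 0.506. MBF1C lost its call without replicate 3 of all groups (edgeR adjusted p up to 0.177). HOP3, which links HSP70 to HSP90, lay just outside the threshold at -1.54 ± 0.39 (edgeR adjusted p = 0.0529), with 24, 22 and 19.1 CPM against 9.3, 6.73 and 6.28 CPM.

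APX2 (AT3G09640, chromosome 3), a cytosolic ascorbate peroxidase that removes hydrogen peroxide, had a larger fall than any other gene above 1 CPM in Col. It stood at 11.1, 11.3 and 10.5 CPM in Col and at 0.149, 0.0583 and 0.0288 CPM in the double mutant, which is 1128 reads in all against 8. The log2 difference was -7.07 ± 0.48 (edgeR adjusted p = 8.13e-13). The 2 lower double mutant libraries were under the floor of detection. No other member of the 8 APX genes was called (12.5% with APX2, against 0.531% of all genes), and their median was -0.07. GOLS1 (AT2G47180, chromosome 2) encodes galactinol synthase 1, which makes the first compound of the raffinose family of protective sugars. It had 67.8, 55.1 and 59.1 CPM in Col and 11.7, 6.88 and 11.7 CPM in the double mutant, a log2 difference of -2.59 ± 0.33 (edgeR adjusted p = 2.76e-06). It was the member called of 9 genes of galactinol, raffinose and inositol metabolism (11.1%, against 0.531% of all genes). The list median was -0.02, and GOLS1 overlaps another annotated gene.

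Promoters of APX2, GOLS1, HSP21 and HSA32 are shown as 4 lower genes of different function, and were chosen after their windows were seen to contain the letters that HSFs are known to bind. HSP22, HSP18.2 and AT1G72660, which fell by more than GOLS1 and HSA32, had no match. Each is the 250 bases just before the annotated start in RefSeq's TAIR10.1 assembly, read 5′ to 3′ on the gene's strand, with matches to heat shock elements in capitals. They lie at chr3:2955906-2956155 (plus strand) for APX2, chr2:19370479-19370728 (minus strand) for GOLS1, chr4:13819972-13820221 (minus strand) for HSP21 and chr4:11340112-11340361 (plus strand) for HSA32.
APX2: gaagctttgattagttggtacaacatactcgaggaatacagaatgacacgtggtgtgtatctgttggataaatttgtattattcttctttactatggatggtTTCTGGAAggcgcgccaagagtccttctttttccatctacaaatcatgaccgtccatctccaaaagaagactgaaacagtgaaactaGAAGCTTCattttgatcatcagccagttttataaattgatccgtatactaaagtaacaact
GOLS1: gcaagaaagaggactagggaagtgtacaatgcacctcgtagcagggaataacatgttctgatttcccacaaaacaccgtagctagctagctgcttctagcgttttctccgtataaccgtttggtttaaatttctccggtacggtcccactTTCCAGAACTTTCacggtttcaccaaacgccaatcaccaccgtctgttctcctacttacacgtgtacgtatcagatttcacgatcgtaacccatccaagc
HSP21: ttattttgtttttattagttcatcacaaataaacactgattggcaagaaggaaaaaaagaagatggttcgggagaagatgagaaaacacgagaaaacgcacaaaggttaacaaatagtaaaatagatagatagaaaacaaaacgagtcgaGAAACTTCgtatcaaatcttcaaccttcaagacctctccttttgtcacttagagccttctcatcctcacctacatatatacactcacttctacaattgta
HSA32: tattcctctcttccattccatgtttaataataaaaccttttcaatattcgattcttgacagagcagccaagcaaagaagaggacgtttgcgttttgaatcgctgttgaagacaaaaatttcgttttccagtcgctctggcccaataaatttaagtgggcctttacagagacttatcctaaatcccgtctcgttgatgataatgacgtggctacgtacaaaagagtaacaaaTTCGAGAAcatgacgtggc

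The letters searched were GAANNTTC and TTCNNGAA, of 8 bases with 2 units each, which read the same on both strands. GAANNTTCNNGAA and TTCNNGAANNTTC, with 3 units, contain them. APX2 and GOLS1 had 2 matches of 2 units each, which in GOLS1 overlap into 1 match of 3 units, and HSP21 and HSA32 had 1. A match of 2 units was found in 29 of the 112 windows of lower genes (25.9%), in 1 of 17 of the higher genes (5.88%) and in 15.8% of the 21106 windows of all tested genes. Among genes that Col kept raised to 28 h, 34.5% of the 58 lower ones had a match and 19.3% of the 486 that were not called. A match of 3 units was found in 2 lower genes, HSFA2, itself mutated, and GOLS1 (1.79%, against 0.422% of all windows). Among genes that Col kept raised to 28 h, 3.45% of the 58 lower ones had one. Of the 486 not called, 11 had one (2.26%), so this match was not particular to the lower genes. A window without a match says only that these letters are not in it.

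**Figure D2:**
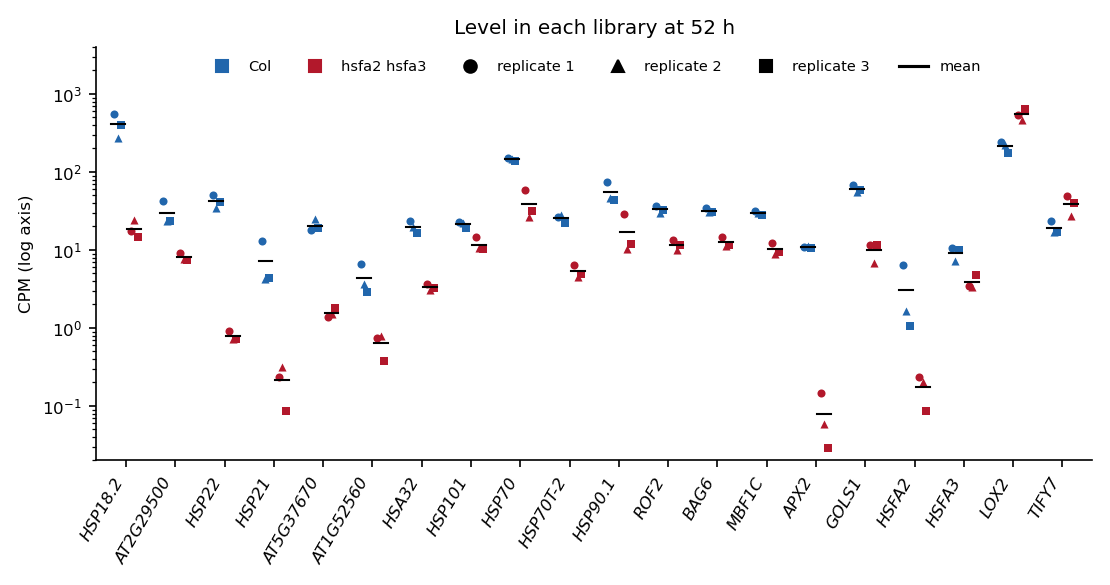
Level of selected named genes, labelled on the x axis, in the 6 libraries at 52 h, in CPM on a log axis. Blue marks Col and red hsfa2 hsfa3, the symbol gives the replicate and the bar the mean of 3. For every gene shown except LOX2 and TIFY7 the double mutant values lie below all Col values, and for those 2 they lie above. HSP101 and HSP90.1 are shown without having passed the test.

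Other lower genes were chosen for description after their values were seen. AT1G72660, a P-loop nucleoside triphosphatase, had 9.01, 6.85 and 6.36 CPM in Col and 0.505, 0.35 and 0.375 CPM in the double mutant (-4.16 ± 0.48, edgeR adjusted p = 4.19e-07). FTSH6, a chloroplast protease that degrades HSP21, had 1.77, 0.644 and 0.933 CPM against 0.208, 0.0583 and 0 CPM, and its call (-3.61 ± 0.84, edgeR adjusted p = 0.0266) was lost without Col replicate 1 and without double mutant replicate 2 or 3 (adjusted p up to 0.66). SYTD, a calcium-dependent lipid-binding protein, was among the most evenly measured, with 19.6, 19.7 and 18.9 CPM in Col and 6.18, 6.29 and 6.92 CPM in the double mutant (-1.58 ± 0.14, edgeR adjusted p = 7.5e-10).

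J-domain co-chaperones of HSP70 were lower in 3 of 119 cases (2.52%, against 0.531% of all genes) by a list added after the values were seen, namely AT2G20560 (-1.91 ± 0.31), AT1G72416 (-1.71 ± 0.22) and AT1G56300 (-0.78 ± 0.12). By the same kind of list, 7 of 39 HSP20-like genes were lower (17.9%, against 0.531% of all genes). HSP22 and AT5G37670 of the small HSP lists above are among them, so this count in part repeats those lists. The methionine sulfoxide reductases PMSR4 and MSRB2, which repair oxidised proteins, fell by less, by 0.66 and 0.62 on the log2 scale, from high levels of 303 to 391 and 164 to 228 CPM in Col. TIL, the temperature-induced lipocalin, gave -0.75 ± 0.15. Also called lower were AGAL1, an alpha-galactosidase, at -0.82, PFK3, a phosphofructokinase, at -0.83 and UGP2, which makes UDP-glucose, at -0.55. The splicing factors SR45a and SR30 gave -0.61 and -0.46.

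Several of the largest folds rest on few reads. LBD22 had 42 reads in all 3 Col libraries and 4 in the double mutant, AT5G53680, an RNA-binding protein, had 39 and 1, and AT5G40382, a cytochrome c oxidase subunit, had 86 and 5. The ratio of Col to double mutant for AT5G53680 was 38.9, with a counting interval of 6.59 to 1577. LBD22 and AT5G53680 were not called without replicate 2 or replicate 3 of all groups, and AT5G40382 when any of the replicate numbers was left out (adjusted p up to 0.295). Of the 112 lower genes, 10 had a Col mean below 1 CPM, and 46 overlap another annotated gene.

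The genes were then sorted by how Col responded to heat, using Col libraries without HS, at 4 h and at 28 h but none from 52 h. In the class raised at both 4 h and 28 h, 58 of 544 genes were lower in the double mutant at 52 h (10.7%, against 0.531% of all genes) and none was higher, with a median log2 difference of -0.21. In the class raised at 28 h only, 8 of 452 were lower (1.77%, median -0.09). In the class raised at 4 h only, 31 of 3021 were lower (1.03%) and 1 was higher (median 0.00). Of 4344 genes that heat lowered in Col, 1 was lower and 7 were higher, and of the 12746 other genes 14 were lower and 9 higher. The class kept raised thus held 58 of the 112 lower genes. The other 486 members were not called, and 72.6% of the class had a difference below 0, against 48.5% of all genes.

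**Figure D3:**
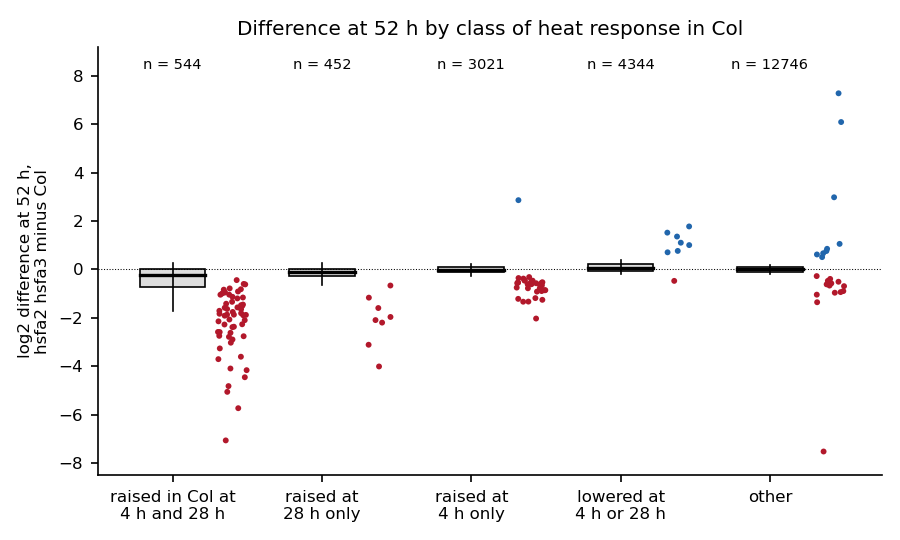
Log2 difference at 52 h, hsfa2 hsfa3 minus Col, by class of heat response in Col. Boxes give the median and quartiles of all genes of a class, with whiskers from percentile 10 to percentile 90, and points are the called genes, red where lower and blue where higher. The class raised at 4 h and 28 h has the lowest median, -0.21, and 58 red points.

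Higher levels in the double mutant were fewer, with 17 genes against 112. LOX2 (AT3G45140), the plastid lipoxygenase that starts jasmonate synthesis, had 241, 224 and 177 CPM in Col and 537, 466 and 649 CPM in the double mutant. The groups did not overlap, and the log2 difference was 1.36 ± 0.28 (edgeR adjusted p = 0.00557). The call was lost without Col replicate 3 or double mutant replicate 3, with adjusted p up to 0.876 when libraries were left out. Of 9 tested genes of the jasmonate list LOX2 was the one called (11.1%, against 0.0805% of all genes called higher), while 8 differences were above 0 and the median was 0.34. By lists added after the values were seen, 2 of 14 jasmonate synthesis genes and 2 of 15 JAZ and TIFY genes, repressors of jasmonate signalling, were higher (14.3% and 13.3%, against 0.0805% of all genes). The median log2 differences of these lists were 0.13 and 0.03. AOC1, an allene oxide cyclase, had 14.1, 18.9 and 11.5 CPM against 21.7, 26.2 and 24.8 CPM (0.71 ± 0.17, edgeR adjusted p = 0.0418). TIFY7 had 23.2, 16.8 and 17.2 CPM against 48.6, 26.9 and 39.6 CPM (1.01 ± 0.23, edgeR adjusted p = 0.0189), and JAZ6 gave 0.62 ± 0.15 (edgeR adjusted p = 0.0284). AOC2 and AOS, which act after LOX2, gave 0.62 and 0.63 with separated groups but did not pass (edgeR adjusted p = 0.184 and 0.623), and the wound marker VSP2 gave 0.16 with overlapping groups.

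TIFY7 lost its call without Col replicate 2 or 3 or without double mutant replicate 1 or 3, with an adjusted p of up to 0.86. AGL16, a MADS-box factor, had 6.97, 7.79 and 7.43 CPM in Col and 12.4, 12.4 and 13 CPM in the double mutant, a log2 difference of 0.77 ± 0.12 (edgeR adjusted p = 9.32e-05) with little spread on either side. Its call was lost without replicate 3 of all groups (adjusted p = 0.19). CYP707A2, which breaks down abscisic acid, had 1.35, 1.52 and 1.78 CPM against 4.34, 2.68 and 3.03 CPM (1.11 ± 0.27, edgeR adjusted p = 0.0462), and AT1G52000, a mannose-binding lectin, had 18, 8.81 and 12.7 CPM against 64.4, 22 and 49.4 CPM (1.78 ± 0.42, edgeR adjusted p = 0.0284). CYP707A2 lost its call without any single library except double mutant replicate 2 (adjusted p up to 0.667). AT1G52000 lost it without Col replicate 2 or 3 and double mutant replicate 1 or 3. CYP71B13 gave 1.52 ± 0.31 (edgeR adjusted p = 0.00604), lost without Col replicate 3 or double mutant replicate 1. SNRK2-8, a stress kinase, gave 0.85 ± 0.19 (edgeR adjusted p = 0.0144), lost without Col replicate 1 or 3 or double mutant replicate 1.

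Lists for photosynthesis, root, seed storage, clock, flavonoid, salicylic acid, dehydration, mitotic and reference genes held no called gene. Of 20 photosynthesis genes, 19 had a difference below 0 (48.5% of all genes had one), with a median of -0.16 and none past the test, and LHCB1.2, a light-harvesting protein, gave -0.57 (edgeR adjusted p = 0.238). Their summed level ranged from 59929 to 76490 CPM in Col and from 59812 to 64629 CPM in the double mutant. Root genes summed to 5084 to 5963 CPM and 4938 to 6146 CPM, and seed storage genes to 3.17 to 20.9 CPM and 1.72 to 7.67 CPM, so the ranges of the groups overlapped for these lists. Clock, flavonoid, salicylic acid, dehydration, mitotic and reference genes had smallest adjusted p values of 0.966 or above. For dehydration genes replicate 1 was the highest in both groups for 11 of 13. AT5G66400, a dehydrin, had 12.7, 8.96 and 9.92 CPM in Col and 59.2, 9.94 and 20 CPM in the double mutant (1.49 ± 0.71, edgeR adjusted p = 0.966), and passed with the replicate block (adjusted p = 0.0454). The part of these values in the results above was not tested. Of 133 disease resistance genes with NB-ARC or TIR-NBS domains, by a list added after the values were seen, 1 was lower and 1 higher (0.752% each, against 0.531% and 0.0805% of all genes), AT5G47250 at -1.04 ± 0.18 and AT5G18360 at 0.67 ± 0.16.

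The change from no HS to 52 h was also compared between the genotypes, which removes differences also present without HS. It was lower in the double mutant for 24 genes and higher for 1, or 0.114% and 0.00474% of the genes tested (314 and 148 at an unadjusted p below 0.05). This comparison shares its 52 h libraries with the one above and its values are set beside those, not as further evidence. With the replicate block 42 genes had a lower change and 3 a higher one. Without 1 library the count of lower changes was 10 without Col replicate 1, 15 without Col replicate 2, 25 without Col replicate 3, 13 without double mutant replicate 1, 9 without double mutant replicate 2 and 13 without double mutant replicate 3. For HSA32 the change in Col was 2.31 on the log2 scale and in the double mutant -0.07. For HSP18.2 it was 7.80 and 3.84, so that this transcript was still raised in the double mutant. GOLS1 gave 3.79 and 1.37, and AT5G37670 gave 3.51 and 0.18. APX2 changed by 7.41 in Col and by 0.18 in the double mutant, and the difference of -7.23 did not pass (edgeR adjusted p = 0.0627). HSP22 and HSP21 were not called (edgeR adjusted p = 0.913 and 1). AGL16 was the gene with a higher change, at -1.21 in Col and -0.39 in the double mutant.

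Levels without HS differed for 11 genes (6 lower, 5 higher), which is 0.0521% of those tested. Of the 112 genes lower at 52 h, 5 were lower without HS as well, MRD1, HEI10, HSFA3, AT5G06440 and AT4G39170, and of the 17 higher genes 5 were higher, UBQ14, AT1G27565, GALS3, AT3G33528 and AT4G15750. These 10 genes therefore include differences that do not follow heat. UBQ14, a polyubiquitin gene, had 21.9, 14.5 and 12.4 CPM in Col and 117, 128 and 111 CPM in the double mutant (2.87 ± 0.18, edgeR adjusted p = 2.37e-13), and without HS it differed by 2.95. Reads that fit it and near-identical ubiquitin genes equally were not counted, so its level rests on the remaining reads. MRD1 had 72 reads over the Col libraries and none in the double mutant. MRD1, AT4G15750 and AT3G33528 were not called without replicate 3 of all groups, and AT3G33528 not without replicate 2 (adjusted p of up to 0.0753, 0.224 and 0.25).

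Earlier recovery times have no library in common with the 52 h comparison. At 28 h, 1340 genes were lower in the double mutant and 694 higher (6.35% and 3.29% of those tested), and at 4 h, 1453 were lower (6.88%). Of the 112 genes lower at 52 h, 104 were lower at 28 h (92.9% of the 112, and 7.76% of the 1340) and 68 at 4 h (60.7%, and 4.68% of the 1453). Of the 20995 genes not lower at 52 h, 1236 were lower at 28 h. Of the 17 higher genes, 13 were higher at 28 h (76.5%, and 1.87% of the 694). Among the 104, the median log2 difference was -1.47 at 28 h and -1.24 at 52 h, and 71 were further apart at 28 h. No gene passed a test of the difference between the 28 h and 52 h differences by edgeR, and 515 and 914 had an unadjusted p below 0.05 in the 2 directions. The 8 genes lower at 52 h and not called at 28 h were HSP70, TIL, GASA1, NRPE3B, AT1G07500, AT1G12730, AT3G56210 and AT4G00695, with log2 differences at 28 h of -1.01 to -0.04.

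APX2 in Col rose from 0.0599 CPM without HS to 621 ± 23.7 CPM (SD, n = 3) at 4 h and stood at 35.4 CPM at 28 h and 10.97 CPM at 52 h. In the double mutant it was 0.0682, 97.6, 0.268 and 0.0786 CPM. Its double mutant libraries at 28 h (0.170 to 0.321 CPM) were still above those without HS (0.0296 to 0.0878 CPM), while those at 52 h overlapped with them. HSP22 in Col was at 3610, 325 and 42.3 CPM at 4, 28 and 52 h and in the double mutant at 1521, 4.40 and 0.790 CPM. HSA32 was at 356, 37.8 and 20.0 CPM in Col and 187, 5.41 and 3.32 CPM in the double mutant, where it had 3.49 CPM without HS. HSP101 was nearly equal at 4 h, with 4507 and 4447 CPM in Col and the double mutant. LOX2 fell at 4 h in both genotypes, to 31.3 and 35.4 CPM, and was at 64.6 and 166 CPM at 28 h and 214 and 551 CPM at 52 h.

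**Figure D4:**
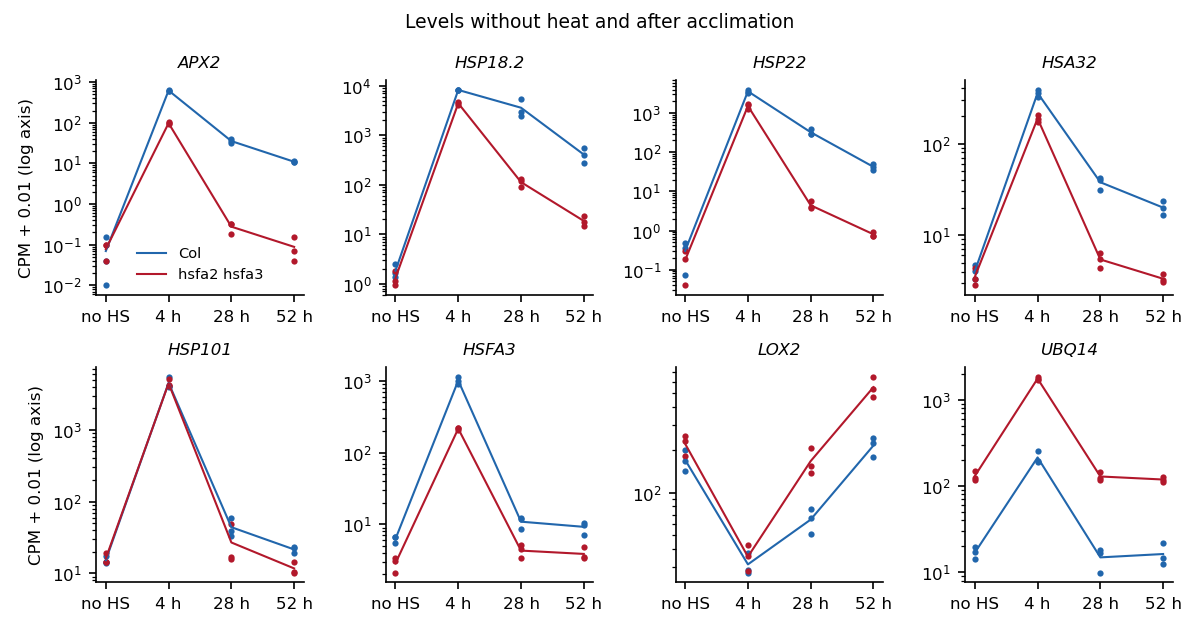
Levels of 8 genes by time of harvest (no HS, then 4, 28 or 52 h of recovery), in CPM with 0.01 added, on a log axis whose range differs between panels. Points are libraries and lines join the means of 3, blue for Col and red for hsfa2 hsfa3. APX2, HSP18.2, HSP22 and HSA32 rise in both genotypes at 4 h and are lower in the double mutant at 28 h and 52 h, and UBQ14 differs at every time.

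The single mutants at 52 h were set beside the double mutant. They share its libraries or those of Col, and so the values below describe the levels. Against hsfa2, 3 genes were lower in the double mutant (0.0142%) and 2 higher, and against hsfa3, 20 were lower (0.0948%) and 3 higher. The 3 below hsfa2 were HSFA3, AT5G06440 and AT3G56210. APX2 averaged 10.97 CPM in Col, and its means in hsfa2, hsfa3 and the double mutant were 0.487, 4.23 and 0.0786 CPM. Against hsfa3 the log2 difference of the double mutant was -5.69 (edgeR adjusted p = 8.41e-09), and against hsfa2 the difference of -2.59 did not pass. HSP18.2 averaged 408, 20.7, 105 and 18.6 CPM in the same order, and its levels in hsfa2 and in the double mutant overlapped. HSP22 averaged 42.3, 3.44, 9.56 and 0.790 CPM, with the double mutant below both single mutants in every library. HSP21 averaged 7.29, 0.561, 0.467 and 0.215 CPM, and the 3 mutants overlapped.

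For HSA32 the means were, in the same order, 20.0, 6.74, 8.57 and 3.32 CPM. Both single mutants were lower than Col, with log2 differences of -1.56 and -1.22, and the double mutant was lower than hsfa3 (-1.37, edgeR adjusted p = 0.000862). The difference from hsfa2 (-1.02) did not pass, though no library overlapped. Levels of HSA32 overlapped between hsfa2 and hsfa3. The same order of means was seen for HSP70T-2, with 25.6, 9.45, 13.7 and 5.33 CPM, for AT5G37670, with 20.5, 4.24, 7.09 and 1.57 CPM, and for SYTD, with 19.4, 9.78, 14.2 and 6.46 CPM. For LOX2 the differences from Col in hsfa2 and hsfa3 were 0.67 and 1.195, neither past the threshold.

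**Figure D5:**
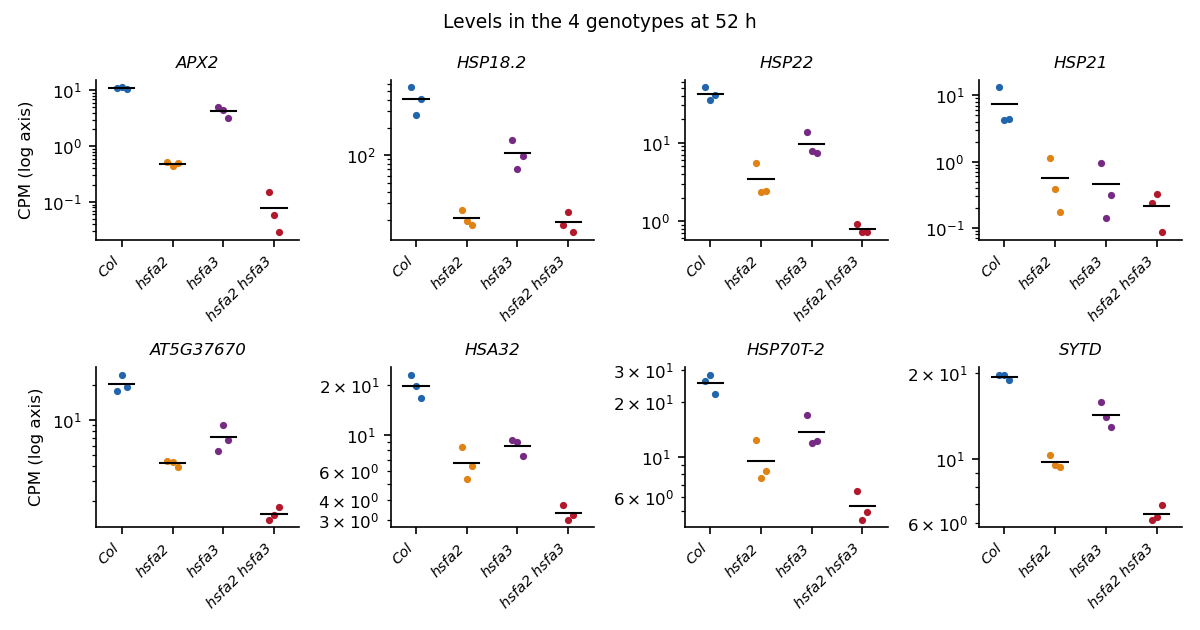
Levels of 8 genes in the 4 genotypes at 52 h, in CPM on a log axis whose range differs between panels. Points are libraries and bars are means of 3. For APX2, HSP22, AT5G37670, HSA32, HSP70T-2 and SYTD all double mutant libraries lie below those of both single mutants, while HSP18.2 overlaps with hsfa2 and HSP21 with both.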

How the data were processed

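Total RNA of seedlings was sequenced as paired reads on a DNBseq platform. The authors aligned them with STAR 2.5.1a to TAIR10 (names from the submitters' processing notes) and deposited counts of read pairs per gene, with no normalization; the strand setting is not given in the sources used here. Of 33323 genes in the files, 32835 matched RefSeq's TAIR10.1 table, and 26712 protein-coding genes were kept, as in the study.

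The main test was edgeR 4.0.16 (R 4.3.3) on the deposited counts, scaled by TMM. Of the coding genes, 21107 passed filterByExpr over the 16 groups. All 48 libraries entered 1 quasi-likelihood fit with 32 residual degrees of freedom, and each contrast had its own Benjamini-Hochberg adjustment, with calls at 0.05. The standard error is the absolute log2 difference over the square root of F. The script was tested on simulated data. The study's methods name 3 biological replicates per group, and nothing used here says how they were grown apart, so p-values measure the spread between these libraries.

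Replicate numbers come from the labels. Same-numbered Col and double mutant libraries deviated together from their group means (correlations 0.474, 0.322 and 0.183, against -0.418 to 0.210 for pairs of unlike number, the highest being Col replicate 3 with double mutant replicate 2), so the block is given where it changes a result. Named genes are HSFA2, HSFA3, genes the study names with a locus, the 12 largest falls and 12 largest rises among called genes with separated groups, list members that were called and, in lists with none, up to 3 with the smallest p. Members and lists were chosen with earlier results of these data known, and further genes are named after their values were seen. Alternatives were DESeq2 1.42.0 size factors or its Wald test, other filters on low counts, all genes, the groups compared alone, a threshold of 0.01, the replicate block and leaving out libraries.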

Additional observations from a re-analysis of the deposited data

Results flagged for a closer look

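The change from no HS to 52 h differed between the double mutant and Col, by the interaction term of edgeR's model, for 25 genes, given here as the double mutant's log2 change minus that of Col. AT5G53680 had a fitted value of -8.86, which depends on the prior count, since Col had no reads of it without HS and the double mutant had 1 at 52 h. The largest other falls were those of HSP18.2 (-3.96), AT1G72660 (-3.92), AT5G37670 (-3.33), AT4G21323 (-2.77) and GDPD3 (-2.70). The next were those of AT4G23493 (-2.59), AT3G50940 (-2.46), GOLS1 (-2.42), HSA32 (-2.38), HSP70T-2 (-2.23) and MLP168 (-2.09). Further ones were AT1G62290 (-2.06), AT2G20560 (-2.002), EGY3 (-1.92), MBF1C (-1.71), SYTD (-1.59) and AT5G12110 (-1.40). The smallest were ORTHL (-1.23), AT1G30070 (-1.14), RBL14 (-0.78), AT1G04130 (-0.77), AT1G49560 (-0.75) and AT5G58787 (-0.73). AGL16 was the gene with a higher change in the double mutant (0.82).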

How the results depend on the processing

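Leaving out 1 replicate number in all groups, or 1 of the 6 libraries, gave 34 to 107 lower and 3 to 22 higher genes, 27 to 64 and 3 to 17 beyond 1 on the log2 scale, and 3 to 31 lower and 0 to 1 higher changes from no HS. The fewest lower genes were found without replicate 3 (34, against 92 without replicate 1 and 59 without replicate 2), and the cause was not tested. A fit on only the groups compared gave 49 lower and 8 higher genes, 40 and 5 beyond 1, and 12 and 0 for the change from no HS, with fewer samples. DESeq2's Wald test gave 40 lower and 2 higher changes from no HS, and 142 lower and 24 higher levels, of which 111 and 17 are among the 112 and 17. A threshold of 0.01 left 9 higher genes, and 9 lower and 0 higher changes.

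With the replicate block 46 genes were higher, 20 of them by more than 1, and the change from no HS was lower for 42 genes and higher for 3. The 161 genes lower with the block include all 112. Of the named genes, those gaining a call under the block were BIP3, ERDJ3A, HSP90.1 and AT5G66400, and no named gene lost its call.

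Other scalings and filters kept every count within 1.5 times. All 112 lower genes stayed below 0 wherever they were tested, and 12 of 34 named called genes kept their call in every alternative. Among uncalled named genes the sign turned when a replicate or library was left out for DGS1 (-0.105 to 0.0105), CRU3 (-6.48 to 5.86), SESA5 (-2.59 to 4.02), TT8 (-0.24 to 1.47), FMO1 (-0.514 to 0.0653), EDS1 (-0.0262 to 0.132), RD29B (-0.45 to 1.09), CDKB2;1 (-0.22 to 0.0925), CDKB1;1 (-0.40 to 0.13), CDKB2;2 (-0.163 to 0.0737), UBQ10 (-0.101 to 0.0161) and PP2AA3 (-0.0586 to 0.0104). Depth limits genes below about 0.09 CPM, where 3 counts are reached, and with 3 libraries per group small differences can go uncalled.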

Other observations

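Several differences in the double mutant were present at every time, with and without heat, over 12 libraries of each genotype. UBQ14 ranged from 9.90 to 257 CPM in Col (median 17.55) and from 111 to 1823 CPM in the double mutant (median 126), with medians of 125 in hsfa2 and 121 in hsfa3. GALS3, a galactan synthase, had a median of 10.01 CPM in Col and of 18.3, 17.8 and 18.7 CPM in hsfa2, hsfa3 and the double mutant. MRD1 was detected in all 12 Col libraries (0.332 to 0.933 CPM), and its median was 0 in all 3 mutants. Its neighbour HEI10, a meiotic crossover factor, had medians of 3.38 CPM in Col and 1.29, 1.53 and 1.53 CPM in the same mutants.

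Other genes differed in 1 of the single mutants and in the double mutant. With 1 allele of each gene, the mutation and other differences of the same line cannot be told apart. AT4G39170, a Sec14p-like lipid transfer protein, had medians of 54.8 and 54.1 CPM in Col and hsfa3, and of 34.0 and 34.3 CPM in hsfa2 and the double mutant. AT4G15750, an invertase or pectin methylesterase inhibitor, had medians of 0 in Col and hsfa3, 1.00 CPM in hsfa2 and 0.903 CPM in the double mutant. AT5G06440 had medians of 37.6 CPM in Col and 39.0 CPM in hsfa2, against 20.8 and 22.4 CPM in hsfa3 and the double mutant. AT1G27565 stood out in the double mutant, at 2.33 to 4.82 CPM, with at most 0.117 CPM in any library of the other genotypes.

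Outside the protein-coding genes, 658 further genes were tested at 52 h when all genes in the files were used, and 5 were lower and 2 higher. The pseudogene AT1G43590 gave -2.53 ± 0.25 (edgeR adjusted p = 8.67e-09) and the noncoding RNA AT4G04223 gave -1.98 ± 0.19 (edgeR adjusted p = 7.9e-09). The pseudogene AT5G35935 was at 0.267, 0.345 and 0.0839 CPM in Col and at 17.44, 18.4 and 17.8 CPM in the double mutant. All 3 also differed without HS.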
